A study of Homo sapiens with 6 samples.

Results

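Clusters of shared AP-1 regions were stretches of the human genome in which at least 4 JUNB binding regions, each having at least 1 bp in common with a FOSL2 binding region, followed each other with gaps of at most 12.5 kb. JUNB occupied 39317 regions on the autosomes and FOSL2 occupied 73751, and 30802 of the JUNB regions were shared. Of these shared regions 3178 (10.3%, 95% Wilson interval 9.98 to 10.7) lay in 677 clusters, which together spanned 15.9 Mb. The other 27624 shared regions stood alone or in groups of 2 or 3. Both factors were mapped by chromatin immunoprecipitation and sequencing in HaCaT cells, a single immortalised line of skin keratinocytes kept in serum-containing medium, with 3 libraries for JUNB and 3 for FOSL2. The 2 groups of libraries carried no treatment or genetic change that the labels name and differed in the antibody used. Each factor had 1 deposited list that stood for its 3 libraries, so no value has a replicate error, the depth of the libraries is unknown, and intervals cover counting error only. The intervals also treat regions of the same cluster as independent of each other, so they can be too narrow. The clusters were chosen from these lists, so their number, length and fold enrichment are descriptions without a test, and RNA was not measured, so the labelled cell type could not be checked against marker levels.

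AP-1 is a dimer of a JUN-family and a FOS-family protein, and it binds the DNA sequence TGANTCA. In keratinocytes AP-1 acts downstream of the epidermal growth factor receptor and of stress kinases, and it is known to regulate keratins, proteases, adhesion molecules and proteins of the cornified envelope. Dense groups of factor-bound regions are one of the features by which large enhancers are described, and the chromatin marks used to define such enhancers were not analysed here.

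Regions inside clusters touched the promoter windows of 6 of the 22 genes named by rule, and 3 of those windows held the AP-1 sequence. A window runs from 250 bases before to 50 after a transcription start listed by RefSeq (GRCh38.p14), and the matches stand in capitals. Windows were listed for 15101 of 19126 protein-coding genes on the autosomes, and a start without one could not be counted. The 3 are shown because a bound region of a cluster covers the motif letters in each. All are read on the plus strand, 5′ to 3′, from chr1:152983831-152984130 for SPRR1A, chr12:13196476-13196775 for EMP1 and chr7:55109589-55109888 for EGFR.
SPRR1A: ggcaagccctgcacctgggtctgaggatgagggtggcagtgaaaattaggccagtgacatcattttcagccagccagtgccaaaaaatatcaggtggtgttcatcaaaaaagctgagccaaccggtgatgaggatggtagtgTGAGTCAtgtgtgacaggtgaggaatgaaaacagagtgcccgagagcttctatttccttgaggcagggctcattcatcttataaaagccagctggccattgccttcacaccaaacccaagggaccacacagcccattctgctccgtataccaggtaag
EMP1: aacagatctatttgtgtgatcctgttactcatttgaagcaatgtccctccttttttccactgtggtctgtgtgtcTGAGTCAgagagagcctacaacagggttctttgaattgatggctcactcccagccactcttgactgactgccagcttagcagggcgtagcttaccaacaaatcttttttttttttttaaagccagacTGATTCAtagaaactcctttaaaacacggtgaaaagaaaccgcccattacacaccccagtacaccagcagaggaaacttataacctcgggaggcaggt
EGFR: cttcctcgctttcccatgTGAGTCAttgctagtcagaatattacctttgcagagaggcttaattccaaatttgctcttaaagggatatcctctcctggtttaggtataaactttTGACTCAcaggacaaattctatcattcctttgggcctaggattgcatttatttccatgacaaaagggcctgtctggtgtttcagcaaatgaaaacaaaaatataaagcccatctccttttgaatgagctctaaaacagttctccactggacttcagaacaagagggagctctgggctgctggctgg
The SPRR1A window, at a small proline-rich precursor of the cornified envelope, held TGAGTCA starting at position -108 from the start. The region over it had a fold enrichment, the deposited linear ratio of signal over background, of 7.96 for JUNB and 9.81 for FOSL2, with the JUNB summit 78 bp from the start. The EMP1 window, at a membrane protein of the epithelial membrane protein family, held TGAGTCA at -175 and TGATTCA at -48. Its region reached 6.36 for JUNB and 8.01 for FOSL2. The EGFR window belongs to a start inside the gene and held TGAGTCA at -232 and TGACTCA at -136, under a region with 6.08 for JUNB and 6.56 for FOSL2. Across the table, a clustered region touched 136 of 21156 windows (0.643%), and 33 of these (24.3%, 17.8 to 32.1) held TGANTCA. Windows touched by a shared region outside clusters held it in 327 of 2305 cases (14.2%, 12.8 to 15.7), and all windows in 1287 cases (6.08%, 5.77 to 6.41). The motif reads the same on both strands apart from its middle base, so a match on one strand is a match on the other. With TGACTCA or its reverse complement TGAGTCA alone, the shares were 21.3%, 11.3% and 3.98% in the same order.

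Most clusters were small. The median cluster held 4 shared regions (interquartile range 4 to 5) over 22118 bp (16395 to 28543), and JUNB regions covered a median of 13.2% of its length. The shortest spanned 3325 bp and the longest 74340 bp. There were 425 clusters of 4 regions and 252 of 5 or more, among them 110 with at least 6 and 26 with at least 8. The threshold of 4 cut through a continuous distribution: 16138 shared regions stood alone, 3877 groups held 2, and 1244 held 3. Groups of 3 had a median length of 12776 bp and a median summed JUNB fold enrichment of 15.6, just outside the rule. Clusters of 4, just inside it, had 19151 bp and 20.4. The gap limit also cut through a continuum, since 509 gaps between neighbouring shared regions lay in the 1000 bp up to 12.5 kb and 462 in the 1000 bp above it.

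**Figure D1:**
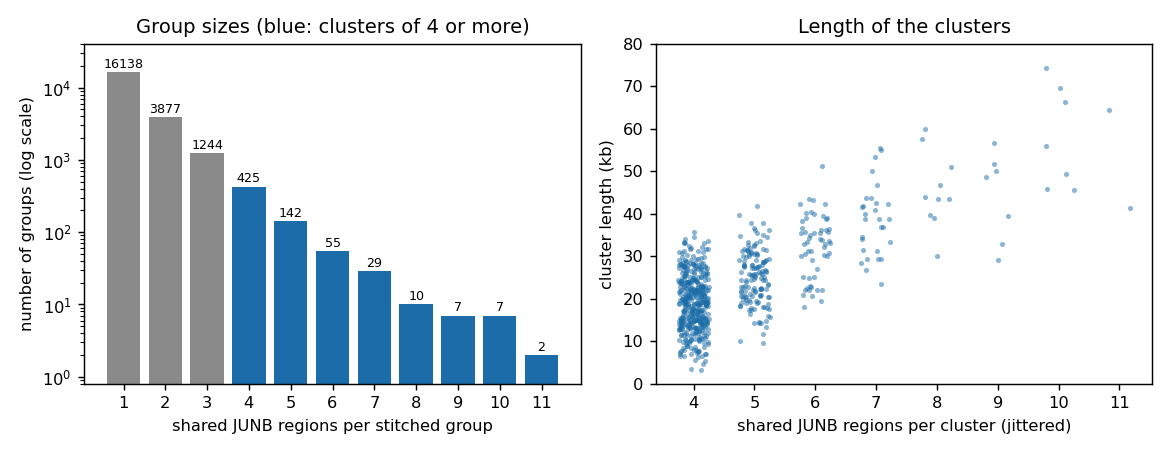
Left, number of stitched groups (log axis) by the number of shared JUNB regions they hold, with the clusters of 4 or more in blue and smaller groups in grey. Right, length of each of the 677 clusters in kb against its number of regions, 1 point per cluster, reaching 74340 bp at ERRFI1.

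LIMA1 held the cluster with the highest summed JUNB fold enrichment. LIMA1 crosslinks actin filaments and links them to cadherin junctions in epithelia. Its cluster lay inside the gene at chr12:50201765-50266326 and held 11 regions over 64562 bp. In genomic order their JUNB fold enrichment was 7.76, 5.03, 2.94, 3.91, 7.15, 8.71, 3.39, 6.73, 7.97, 3.26 and 4.51, a sum of 61.4. The FOSL2 values at the same places were 8.30, 8.23, 4.25, 3.36, 7.99, 11.9, 3.83, 7.04, 7.78, 3.02 and 3.89, a sum of 69.6. Strong and weak regions were interspersed along the gene, and the highest values of both factors fell in the same, sixth region. The first region had its summit 72 bp from a start that RefSeq lists inside the gene.

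ERRFI1 had the longest cluster and the highest summed FOSL2 fold enrichment. The gene encodes a feedback inhibitor that binds the EGF receptor and blocks its kinase. Its cluster at chr1:8004434-8078773 held 10 regions over 74340 bp, but no cluster overlapped the gene when shared regions had to overlap reciprocally by 50%. JUNB fold enrichment was 8.77, 3.64, 6.34, 4.58, 9.37, 3.19, 4.10, 5.93, 4.86 and 7.14, a sum of 57.9. FOSL2 fold enrichment was 7.96, 6.26, 7.42, 5.78, 11.5, 4.98, 8.42, 7.19, 4.91 and 8.76, a sum of 73.1. The gene covered only the stretch from 7.29 to 21.9 kb of the cluster, so the strongest region, at the fifth place, lay outside it.

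EGFR itself carried 2 clusters. EGFR is the receptor for epidermal growth factor and its relatives, and drives keratinocyte proliferation and migration. The first, chr7:55026944-55086904, held 8 regions over 59961 bp with JUNB values of 2.80, 3.51, 3.78, 3.97, 2.63, 5.85, 6.77 and 2.88. FOSL2 values there were 3.86, 4.30, 4.28, 5.29, 3.92, 6.13, 8.70 and 4.69. Both factors were highest at the seventh region, and the summed values of 32.2 for JUNB and 41.2 for FOSL2 were the lowest among the 12 clusters named for their size. The second, chr7:55108896-55134142, began 21992 bp further on and held 4 regions with JUNB values of 6.08, 3.48, 2.05 and 6.84 and FOSL2 values of 6.56, 4.32, 2.15 and 5.79. Its outer regions were the strong ones.

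PLAU encodes urokinase, the protease that activates plasminogen in migrating and wound-edge keratinocytes. Its cluster at chr10:73871365-73940916 held 10 regions and also reached CAMK2G, a calcium- and calmodulin-dependent kinase. JUNB fold enrichment was 3.72, 3.55, 4.05, 4.66, 6.94, 5.12, 4.82, 3.67, 9.76 and 3.37. FOSL2 fold enrichment was 3.05, 6.30, 3.44, 5.39, 9.72, 5.55, 5.71, 3.67, 10.3 and 2.70. The fifth and ninth regions stood out for both factors. Both lay outside the genes, since CAMK2G covered the cluster up to 3.19 kb and PLAU from 37.5 to 46.1 kb. EMP1 had as many regions as LIMA1 but weaker ones. Its cluster at chr12:13165269-13206705 ran mostly before the gene, and its JUNB values were 6.56, 4.90, 2.74, 3.81, 3.66, 2.86, 3.56, 2.29, 4.02, 6.36 and 3.81, a sum of 44.6. FOSL2 values were 6.54, 5.61, 2.09, 3.91, 3.63, 3.63, 2.69, 3.24, 5.61, 8.01 and 5.77, where the fifth and sixth JUNB regions shared 1 FOSL2 region. The regions nearest the outer end and at the promoter were the highest, with weak ones between them.

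Among the other largest clusters were genes of the actin cortex, adhesion and transcriptional regulation. MYO1E, a single-headed myosin that works at the plasma membrane, contained 10 regions at chr15:59268195-59317650, with JUNB fold enrichment from 3.18 to 8.90 and FOSL2 from 2.52 to 9.39. JUNB and FOSL2 peaked in the same region there. PHLDB2, which anchors microtubules near focal adhesions, shared a cluster of 9 with PLCXD2 at chr3:111717451-111769124, and its JUNB values lay in a narrow range from 4.96 to 7.83. It carried a further cluster of 6 at chr3:111917277-111947640. TADA2A, an adaptor of histone acetyltransferase complexes, shared 10 JUNB regions at chr17:37446138-37491644 with DUSP14, a phosphatase of MAP kinase signalling. Their JUNB values ran from 3.45 to 7.35 and their FOSL2 values from 4.41 to 7.09, and DUSP14 had no cluster under the reciprocal overlap.

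SKIL, a repressor of SMAD transcription factors, lay at one end of a cluster of 8 at chr3:170307921-170365637, with JUNB from 2.99 to 6.44 and FOSL2 from 4.01 to 8.54. The cluster at chr10:23314873-23365816 overlapped C10orf67 and held 8 regions with JUNB from 2.51 to 8.39 and FOSL2 from 3.96 to 10.7. A cluster of 9 at chr10:21329854-21369351 overlapped no protein-coding gene. The nearest was NEBL, an actin-binding protein of the nebulin family, 36803 bp away. Its JUNB values ran from 2.80 to 8.62 and summed to 51.2, the third highest of all clusters.

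**Figure D2:**
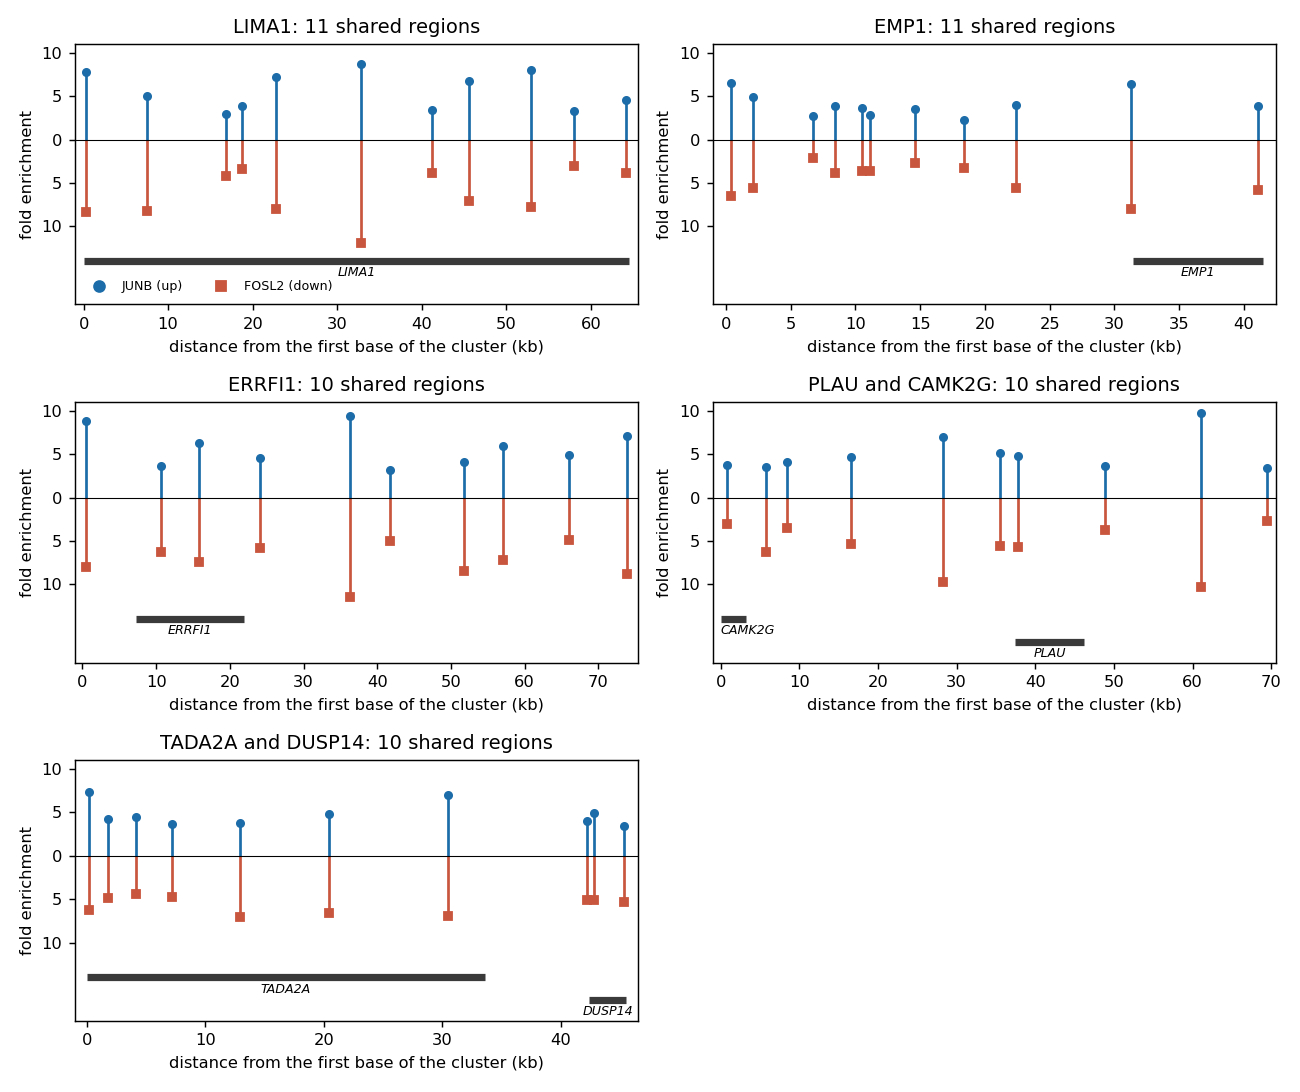
Fold enrichment of each shared region in 5 of the 6 clusters with most regions, JUNB upward and FOSL2 downward on the same scale, against the distance of the JUNB summit from the first base of the cluster in kb. Dark bars are the parts of protein-coding genes inside each cluster. Regions of LIMA1 reach 8.71 for JUNB and 11.9 for FOSL2, while those of EMP1 stay at or under 6.56 and 8.01.

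Across the 677 clusters the summed JUNB fold enrichment had a median of 22.6 (19.3 to 27.0, highest 61.4) and the summed FOSL2 value a median of 28.0 (23.7 to 33.4, highest 73.1). These sums followed the number of regions by construction (Pearson r = 0.81 and Spearman rho = 0.69 between number and summed JUNB value, n = 677 clusters of the same lists). The mean per region did not follow it (r = -0.07, rho = -0.04). Mean JUNB and mean FOSL2 values of a cluster went together (r = 0.76, rho = 0.76), and the points share the cell line and the positions chosen for both factors. Larger clusters thus held more regions, which were on average no stronger.

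Within a cluster, the strongest region made up a median of 31.8% of the summed JUNB value (27.6 to 35.5). Ranked by JUNB value within their cluster, an order the ranking fixes, the first 4 regions had medians of 7.21, 5.73, 4.59 and 3.60. The strongest JUNB region was also the strongest FOSL2 region in 421 clusters (62.2%, 58.5 to 65.8).

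**Figure D3:**
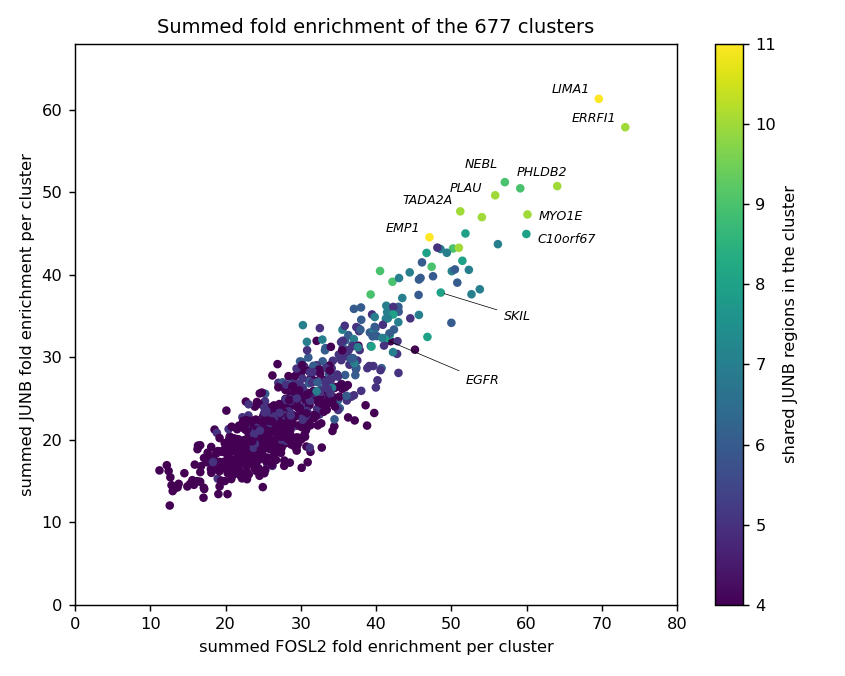
Summed JUNB against summed FOSL2 fold enrichment, 1 point per cluster, coloured by the number of shared JUNB regions, with the clusters described by name labelled by their first or nearest gene. LIMA1 is highest for JUNB at 61.4 and ERRFI1 for FOSL2 at 73.1.

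Clustered regions were individually weaker than shared regions elsewhere. Their median JUNB fold enrichment was 4.81 (3.68 to 6.27) in clusters and 5.34 (4.08 to 7.03) outside them. The median FOSL2 value was 6.18 (4.59 to 7.99) in clusters and 8.01 (5.99 to 9.82) outside. By group size 1, 2, 3, 4 and 5 or more, the JUNB median was 5.50, 5.21, 5.05, 4.85 and 4.77. The FOSL2 median was 8.66, 7.32, 6.71, 6.34 and 6.04. Both series of medians ran downward with each step in group size, and the interquartile ranges of neighbouring sizes overlapped. The upper 10% of all shared regions by JUNB value, at 8.57 or more, held 5.19% of clustered regions and 10.6% of the others, and 146 clusters (21.6%) had such a region. Widths were alike, with medians of 613.5 bp in clusters and 618.5 bp outside. The rule used the presence of both factors in the same lists, so these differences are given without a test.

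**Figure D4:**
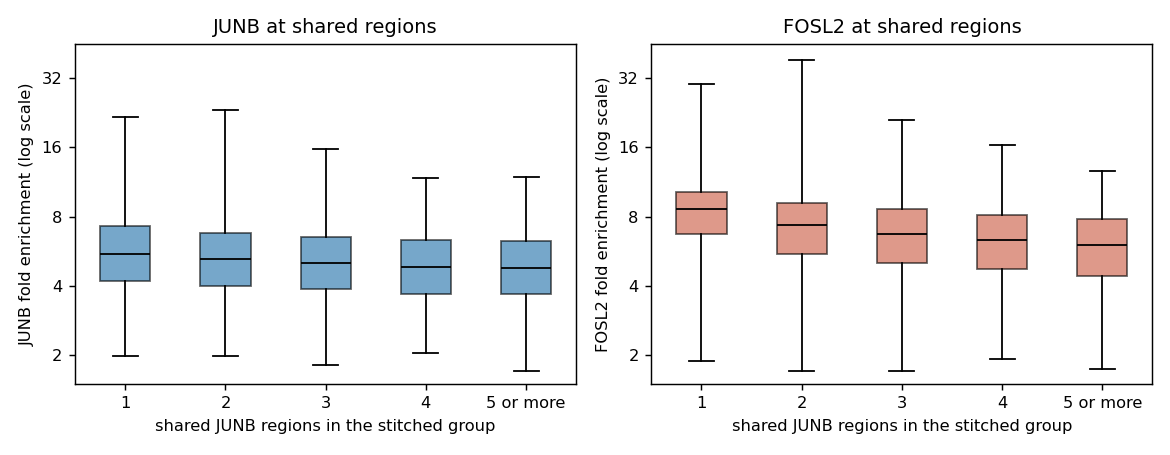
Fold enrichment (log axis) of shared regions, JUNB left and FOSL2 right, by the number of shared regions in their stitched group. Boxes give the quartiles and median and whiskers the lowest and highest value, and the medians run from 5.50 to 4.77 for JUNB and from 8.66 to 6.04 for FOSL2.

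The clusters also contained regions of a single factor. FOSL2 regions without a JUNB partner numbered 385 in 282 clusters (41.7%, 38.0 to 45.4), and had a median FOSL2 value of 3.20, against 4.40 for such regions elsewhere. JUNB regions without a FOSL2 partner were fewer, 106 in 90 clusters (13.3%, 10.9 to 16.1). The shared regions of JUNB and FOSL2 were equal in number in 609 clusters, while JUNB had more in 66 and FOSL2 in 2.

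By place, 235 clusters (34.7%) lay inside 1 protein-coding gene, 228 (33.7%) ran across a gene end, and 214 (31.6%) lay outside genes. Clusters outside genes were a median of 49895 bp from the nearest gene (18020 to 135305), and 72 of them were more than 100 kb away. Of the summits, 50.8% (49.0 to 52.5) of clustered regions and 49.6% (49.0 to 50.2) of the other shared regions were inside genes. Within 1000 bp of a gene end were 5.85% (5.09 to 6.72) of clustered summits, against 8.87% (8.54 to 9.21) of the others. By group size 1, 2, 3, 4 and 5 or more this share was 9.34%, 8.41%, 7.77%, 5.88% and 5.82%. Counted per region, clustered summits thus lay inside genes in about the same share as the others, and within 1000 bp of gene ends in a smaller one. Off chromosome 8, 4.83% of clustered summits and 7.83% of the others lay within 1000 bp of a start listed by RefSeq. The median distance to such a start was nevertheless shorter in clusters, 34755 bp against 45487 bp, with overlapping interquartile ranges. Counted per cluster, 177 of 639 (27.7%) spanned a listed start, and in 102 a region touched a promoter window. In 17 of 639 clusters off chromosome 8 (2.66%, 1.67 to 4.22) the strongest region had its summit within 1000 bp of a start listed by RefSeq, among them the clusters of TGFBR2 at 57 bp and, at starts listed inside the gene, LAMA3 at 181 bp and LAMB3 at 54 bp.

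Clusters overlapped 538 of 19126 protein-coding genes on the autosomes (2.81%), and 670 (3.5%) lay within 10 kb of one. Longer genes were overlapped in a larger share, and the median length of all 19126 genes was 24476.5 bp. In 4 equal classes of gene length, from short to long, the shares were 1.38%, 1.74%, 2.78% and 5.35%. In 10 lists of genes with roles in keratinocytes, 38 of 238 genes were overlapped, and in 5 lists of markers of other cell types none of 84 was. The lists were drawn up with earlier results of these data known and no set test was made, so their shares are read beside the 2.81% only as a description.

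Basal-cell genes, including those for attachment to the basement membrane, had the largest share, 9 of 20 (45%), with a median gene length of 59753 bp. The count was 4 of 20 when only regions with a deposited −log10 q of at least 10 were kept, and it was 1 and 16 with stitching gaps of 5000 and 25000 bp. TP63, the transcription factor that marks the basal layer, contained 4 regions at chr3:189819816-189842270 with JUNB values of 6.82, 5.38, 7.84 and 6.42 and FOSL2 values of 6.52, 6.89, 7.79 and 7.67. All 4 were of like height. LAMA3 and LAMB3 encode chains of the laminin that anchors basal cells. LAMA3 had JUNB values of 3.76, 3.47, 5.74 and 8.63, with the highest region at a start that RefSeq lists inside the gene. LAMB3 had 3.20, 3.89, 2.63, 2.26 and 3.30, with no strong region among them.

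ITGA2, the collagen-binding integrin subunit, contained 6 regions at chr5:53019265-53048355 with JUNB values of 8.37, 3.21, 3.35, 3.84, 3.13 and 3.01. Its FOSL2 values were 9.95, 2.89, 3.85, 6.61, 6.61 and 5.32, where the equal neighbouring values belong to 1 FOSL2 region. The first region was the highest for both factors, and for JUNB the only one above the clustered median of 4.81. COL17A1, a hemidesmosomal collagen, was reached by 353 bp of a cluster of 6 at chr10:104085528-104121314, which also overlapped SFR1. The JUNB values were 4.77, 8.39, 2.85, 6.30, 5.72 and 3.19, and the first region had its summit 26 bp from a listed start. PLEC, which ties keratin filaments to hemidesmosomes, had a cluster of 4. KRT14, the basal keratin, lay whole within the span, gaps included, of a cluster of 4 regions with JUNB values of 3.04, 2.45, 3.31 and 5.55. The regions themselves covered at most part of the gene's 4617 bp, and whether any of them met its start was not determined. KRT14 and KRT17 have near-identical pseudogene copies elsewhere on the chromosome, and how reads mapping to several places were handled is not given in the sources used here. At a −log10 q of at least 10 neither COL17A1 nor CDH3, described next, had a cluster. BCAM, CD44 and COL7A1 were among the basal genes with no cluster within 10 kb.

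Junction genes followed with 8 of 30 suprabasal genes (26.7%, median length 31533 bp), or 5 of 30 at a −log10 q of at least 10. CDH1 and CDH3, the neighbouring genes of E-cadherin and P-cadherin, shared a cluster of 6 at chr16:68728539-68761399. Its JUNB values were 4.10, 3.07, 3.25, 6.40, 8.45 and 4.26 and its FOSL2 values 5.87, 2.94, 4.85, 6.28, 8.32 and 4.65. The fifth region was the highest for both factors. CDH1 contained a further 5 regions at chr16:68778339-68802735, with JUNB from 3.63 to 5.92. The tight-junction genes CLDN1, CLDN4, OCLN and TJP1 and the desmosomal plakophilins PKP1 and PKP2 had clusters of 4 or 5. CLDN4 had the highest single value among them, with JUNB at 7.20, 8.87, 3.34 and 4.43. Of that cluster 358 bp lay in the gene, and its last region had its summit 20 bp from a listed start. CDSN, CTNNA1 and DSC1 had none within 10 kb.

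Cornified envelope genes, which are short (median 4032 bp), were overlapped in 2 of 33 cases (6.06%), both by 1 cluster. It held 6 regions over 51318 bp at chr1:152933099-152984416, across SPRR4 and SPRR5 and ending 336 bp into SPRR1A. JUNB values were 5.60, 7.08, 9.43, 4.80, 4.95 and 7.96, and FOSL2 values 8.13, 6.35, 9.34, 6.09, 7.85 and 9.81. All but the fourth exceeded the median JUNB value of clustered regions, 4.81, and the last is the region over the SPRR1A promoter printed above. CRNN, CSTA and EVPL were without a cluster within 10 kb.

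Signalling genes included both large and small clusters. In the EGF receptor and MAPK list 4 of 24 genes (16.7%) were, namely EGFR and ERRFI1 with the large clusters above, and EGR1 and DUSP1 with 4 regions each. EGR1, an immediate early transcription factor, had JUNB values of 4.90, 4.13, 6.54 and 4.82. DUSP1, a MAP kinase phosphatase, had 5.98, 5.11, 6.37 and 4.02. AREG, BTC and DUSP4 had no cluster within 10 kb. Of the YAP and TEAD list 5 of 20 genes (25%) were overlapped, or 2 of 20 with a reciprocal overlap of 50% and likewise at a −log10 q of at least 10. AMOTL1, a regulator of YAP, contained most of a cluster of 7 at chr11:94706021-94749828, with JUNB values of 7.35, 5.03, 3.55, 4.06, 6.03, 3.88 and 3.36. PTPN14, a phosphatase that restrains YAP, carried 2 clusters of 5, the first with JUNB up to 9.09. TEAD1 and WWTR1, the DNA-binding factor and the co-activator of that pathway, had 4 and 5 regions, and NT5E, an enzyme of extracellular adenosine production, had 4. In TEAD1, WWTR1 and NT5E a pair of neighbouring JUNB regions met the same FOSL2 region, with FOSL2 values of 4.44, 6.84 and 5.07. The rule counts JUNB regions, so TEAD1 and NT5E reached its limit of 4 with fewer FOSL2 regions.

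For wound repair and migration the count was 3 of 20 (15%), with PLAU, KRT17 and MET. KRT17, a keratin induced by injury, had 5 regions with JUNB from 3.16 to 5.51. MET, the hepatocyte growth factor receptor, had JUNB values of 6.11, 6.31, 4.24, 3.78 and 4.27. For the actin cytoskeleton it was 3 of 23 (13.0%), with MYO1E, LPP and VCL, the focal adhesion protein vinculin, whose 5 JUNB values lay between 4.34 and 6.91. For the TGF-beta pathway it was 2 of 20 (10%), SKIL and the receptor TGFBR2. TGFBR2 had JUNB values of 5.11, 7.39, 9.44 and 4.35, the highest at its start site. These 3 lists have median gene lengths of 11136, 103980 and 81255 bp.

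Of the list of AP-1 and related factors 1 of 21 genes (4.76%) was overlapped, the related factor MAFG, a small MAF protein that pairs with AP-1 relatives. ATF2, ATF3 and ATF7 were among those without a cluster within 10 kb. Of the inflammation list it was 1 of 28 (3.57%), the cytokine gene IL1A, of which 385 bp lay in a cluster with JUNB values of 5.15, 5.49, 4.66 and 4.64. The first of these regions had its summit 35 bp from a listed start. The shares of both lists were close to the 2.81% of all genes. Markers of melanocytes, fibroblasts, T cells, hepatocytes and neurons were overlapped in 0 of 14, 0 of 18, 0 of 17, 0 of 18 and 0 of 17 cases, although the melanocyte and neuron lists hold long genes, with median lengths of 81400 and 88187 bp. Within 10 kb of a cluster was 1 of these genes, a T-cell marker. With a gap of 25000 bp, and with at least 3 regions, 2 of the 17 neuron markers were overlapped. Lists this short allow little to be read from a count of 0.

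**Figure D5:**
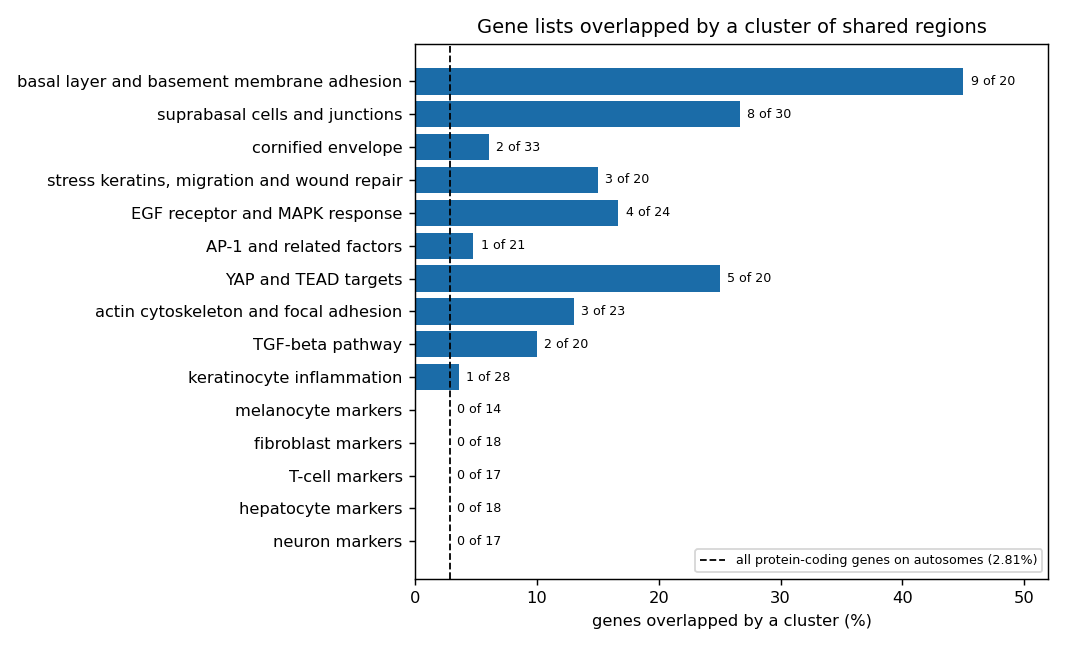
Percent of the genes of each list overlapped by at least 1 cluster, with the counts printed beside the bars. The dashed line is the 2.81% of all protein-coding genes on the autosomes, and the bars reach 45% for basal genes and 0% for the 5 lists of other cell types.

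The clusters were spread over all autosomes. Chromosome 1 had most, 76. The share of shared regions that lay in clusters was highest on chromosome 10 at 13.9% (244 of 1760, in 46 clusters) and lowest on chromosome 4 at 3.12% (32 of 1026, in 8 clusters). Clusters rarely neighboured each other: the next one was a median of 733340 bp away, and 69 clusters (10.2%) had another within 50 kb, such as the pairs at EGFR and CDH1.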

How the data were processed

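HaCaT libraries for JUNB and FOSL2, 3 each, were prepared by ChIPmentation from crosslinked, sonicated nuclei, per the labels' protocols. Bowtie2, SAMtools 1.8, Picard 1.89, MACS2, deepTools and hg38 are named per the submitters' processing notes, without options. For the control and the way libraries were combined, nothing was stated in the sources used here. The deposited list of each factor gives per region the authors' whole-number score, fold enrichment (signal over background as a linear ratio), −log10 p, −log10 q and summit offset. Score and −log10 p were not used, and −log10 q only in an alternative. The authors' fold and overlap calls depend on depth, which is unknown.

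Regions were stitched with Python 3.11.15, pandas 2.3.3, NumPy 2.4.6 and SciPy 1.17.1, on the autosomes. A JUNB region overlapping several FOSL2 regions took the highest FOSL2 fold, and sums counted each region once. The stitching was tested on simulated data. Genes and promoter windows came from RefSeq (GRCh38.p14, the coordinates of hg38). Windows covered 15101 of 19126 genes, with those of chromosome 8 not used here, so distances to starts are to listed starts. All list genes were found except 4 not on autosomes (FLNA, GPR143, FOXP3 and SYP).

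Members and gene lists were chosen with earlier results of these data known. Named were the 6 clusters ranking highest by number of regions, length, and summed JUNB and FOSL2 fold (12 in union, ties broken by summed JUNB fold), list genes overlapping a cluster of at least 6 regions, and up to 3 genes per list without a cluster. Smaller clusters of list genes were described beyond that rule, after their values were seen. Some items selected in this way are not reported here. Shares have 95% Wilson intervals, and no test was made. The intervals treat each region and each window as independent. Regions of the same cluster lie together and some genes have several windows, so the intervals can be too narrow. Alternatives were gaps of 5000 and 25000 bp, at least 3 or 6 regions, a reciprocal overlap of 50%, −log10 q of at least 10 for both factors, chromosome X included, genes within 10 kb, and TGACTCA as the motif.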

Additional observations from a re-analysis of the deposited data

How the results depend on the processing

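A share was taken as moved outside its 95% Wilson interval, and a count or length past 1.5 times. With a gap of 5000 bp there were 105 clusters (1.45% of shared regions, median length 10168 bp), 51.4% overlapped a gene, and 0.293% of genes and 5 keratinocyte list genes were overlapped. With 25000 bp the values were 1573 clusters, 27.5%, 41629 bp, 73.2%, 8.63% and 85 genes. With at least 3 regions there were 1921 clusters (22.4%), and 7.14% of genes and 66 list genes were overlapped. With at least 6 regions there were 110 clusters (2.49%, 36566 bp), of which 77.3% overlapped a gene, and 0.591% of genes and 12 list genes were overlapped. A reciprocal overlap of 50% put 8.31% of shared regions in clusters and 1.92% of genes under them. A −log10 q of at least 10 left 355 clusters (7.05%, 1.44% of genes). Counting genes within 10 kb gave 73.3% of clusters and 3.5% of genes. The number, size and gene counts of the clusters are thus set by the stitching limits. Other values of these quantities did not move, chromosome X included (682 clusters). The motif share was recomputed only with TGACTCA. For the 15 gene lists the count of overlapped genes was compared, by the limit of 1.5 times. It moved in 10 and 11 lists at gaps of 5000 and 25000 bp, and in 8 and 9 with at least 3 and 6 regions. It moved in 2 with the reciprocal overlap, and in 3 each with the −log10 q limit and within 10 kb. Neuron markers, at 0 of 17, reached 2 of 17 at 25000 bp and with at least 3 regions. The list of AP-1 and related factors stayed at 1 of 21 with at least 3 regions. Of the 22 named genes, 20 had no overlapping cluster at a gap of 5000 bp, NEBL among them, which had none at 12.5 kb either. ERRFI1 and DUSP14 had none with the reciprocal overlap, and CDH3 and COL17A1 none at the −log10 q limit. The number of regions in the largest cluster moved for 7 of the 22 at the −log10 q limit. ERRFI1 went from 10 to 5 there and EGFR from 8 to 5. With the reciprocal overlap it moved for 5, TADA2A going from 10 to 4 and SKIL from 8 to 5.

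No paired analysis was possible because the columns carry no value per library, and for the same reason no replicate was left out. Depth is unknown, so unbound places and weak regions missing from a list cannot be told apart.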

Other observations

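The values here were chosen after they were seen. Several genes outside the lists had large clusters. EPHA2, a receptor tyrosine kinase of epithelia, had 9 regions at chr1:16139433-16189491 with JUNB fold enrichment from 2.98 to 7.86. PADI1, an enzyme that citrullinates proteins in the upper epidermis, had 7 at chr1:17204661-17245683 with JUNB from 2.96 to 7.71. IER5, an immediate early gene, had 9, and so did ANXA2 together with ICE2. ANXA1, a phospholipid-binding protein, had 9 shared regions at chr9:73100211-73156928 and 4 further FOSL2 regions without JUNB. A cluster of 10 at chr11:64311142-64367055 overlapped 5 genes, CCDC88B, RPS6KA4, ESRRA, PRDX5 and TRMT112. NRG1, a ligand of the ERBB receptors, carried 3 clusters with 15 regions in all, ABLIM1 carried 3 with 14, RAD51B 3 with 13 and THADA 3 with 12. All 4 are long genes.

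At the extremes, the highest mean JUNB value was 8.66, over 5 regions at chr11:34233862-34275646 in ABTB2. The highest single JUNB value in a cluster was 11.8 at chr12:59040970-59070198, 120465 bp from LRIG3, followed by 11.7 at AQP3, the water and glycerol channel of keratinocytes. The highest FOSL2 value was 16.3, at ZP3. The cluster farthest from a protein-coding gene held 5 regions at chr17:71402130-71424850, 696169 bp from SOX9. The shortest held 4 regions within 3325 bp at chr17:20698323-20701647, where JUNB regions covered 42.1% of its length.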
